A study of Mus musculus with 15 samples.

Results

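MiRNA levels of untreated αTC1-6 cells harvested at 48 h were compared with those of untreated αTC1-6 cells harvested at 24 h, assay by assay, on TaqMan low density arrays for rodent miRNAs. Members were all miRNA assays with a Ct (the cycle number where amplification is first called) in each of the 6 samples of the non-normalized deposited table, which gave 416 of the 584 miRNA assays on cards A and B. MiR-26a, the reference, was then set aside, so 415 assays were tested, of which 376 were designed on mouse and 39 on rat sequences. The non-normalized table was used because between 59 and 72 card A assays of each untreated 24 h sample carry a Ct there and are undetermined in the normalized table, against 0 in each untreated 48 h sample.

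αTC1-6 is a clonal mouse glucagonoma line used as a model of pancreatic α cells, and is a tumour line rather than islet tissue. The series holds 15 samples, of which 3 untreated αTC1-6 samples at 24 h and 3 at 48 h enter the main comparison. Cells of both groups were plated the day before the time course began and were grown without any added agent. They served as the matched controls of αTC1-6 cells given a cocktail of IL-1β, IFN-γ and TNF-α, of which 3 samples at each time point are set beside them here, and 3 untreated βTC1 samples were not used in the main fit. The methods describe the replicates as independent biological replicates. No label gives the day, plate or card on which a sample was run, so the time point and the run cannot be told apart.

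MiRNAs are short RNAs cut from hairpin precursors, and either arm of a hairpin can give a mature miRNA, the less abundant of which carries a star in the older names used on these cards. A mature miRNA finds its target mRNAs mainly through its seed, bases 2 to 8, and miRNAs that share a seed share many predicted targets. Many mouse miRNAs lie in genomic clusters that are transcribed together, such as the imprinted Dlk1-Dio3 cluster on chromosome 12, the miR-322 to miR-503 cluster on chromosome X, whose members restrain the cell cycle, and a rapidly evolving group on chromosome X that is best known from testis. MiR-375 and miR-7 are enriched in islet endocrine cells, and the miR-200 family maintains the epithelial state.

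The mature sequences of the assays on which the results turn are given below, as RefSeq lists them on GRCm38.p6. They are written 5′ to 3′ with the seed in capitals. RefSeq entries were looked up for 37 assays and found for 34.
miR-881* (miR-881-5p, chrX:66801986-66802007, minus strand): cAGAGAGAuaacagucacaucu
miR-741 (miR-741-3p, chrX:66796809-66796831, minus strand): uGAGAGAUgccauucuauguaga
miR-547 (miR-547-3p, chrX:67988383-67988403, minus strand): cUUGGUACaucuuugagugag
miR-322 (miR-322-5p, chrX:53054306-53054327, minus strand): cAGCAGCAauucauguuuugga
miR-322* (miR-322-3p, chrX:53054269-53054289, minus strand): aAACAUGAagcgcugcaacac
miR-503 (miR-503-5p, chrX:53054027-53054049, minus strand): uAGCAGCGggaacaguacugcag
miR-542-3p (chrX:53049415-53049436, minus strand): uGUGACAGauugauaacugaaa
miR-200c (miR-200c-3p, chr6:124718324-124718346, minus strand): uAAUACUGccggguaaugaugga
miR-200a (miR-200a-3p, chr4:156054911-156054932, minus strand): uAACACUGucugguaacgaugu
miR-380-3p (chr12:109711842-109711863, plus strand): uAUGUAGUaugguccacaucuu
miR-668 (miR-668-3p, chr12:109734774-109734797, plus strand): uGUCACUCggcucggcccacuacc
miR-23a (miR-23a-3p, chr8:84208563-84208583, plus strand): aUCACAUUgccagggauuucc
miR-26a (miR-26a-5p, from precursors on chromosomes 9 and 10): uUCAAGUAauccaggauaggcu
The seeds of miR-322 and miR-503 differ in 1 base, and so do those of miR-200c and miR-200a.

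All levels are given as ΔCt, the Ct of an assay minus that of miR-26a in the same sample, so that a lower ΔCt is a higher level and 1 cycle is 1 unit of log2. Differences are log2 of 48 h over 24 h, positive when the level was higher at 48 h. The Ct of miR-26a was 18.98, 17.55 and 17.69 in the 24 h samples and 18.98, 16.97 and 17.95 in the 48 h samples. Between 494 and 509 miRNA assays had a Ct in each of the 6 samples. Across the 415 assays, samples of the same time point correlated with a Pearson r of 0.82 to 0.94, and samples of different time points with 0.76 to 0.92, so that the time points did not form separate groups. Of the 3003 Ct values of the 6 samples, 32.7% lay within 0.05 of a whole cycle, where an even spread would put 10%, which limits how finely small differences and small spreads between replicates can be read. A Ct under 12 occurred in 34 wells of 32 assays, of which 5 were among the 415 tested.

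No miRNA passed the test between the time points, and most differences were smaller than 1 cycle. At an adjusted p under 0.05 (limma with Benjamini-Hochberg adjustment), 0 of 415 assays passed, a share of 0%. Without adjustment, 13 assays (3.13%) had a p under 0.05, 6 of them higher and 7 lower at 48 h. With no difference in any assay, a share of about 0.05 would have such a p on average. With the replicate number as a block 28 assays had one and 0 passed the adjusted threshold. The lowest adjusted p by limma was 0.127, for miR-881*. The count at the adjusted threshold was 2 when assays with a Ct in at least 3 of the 6 samples were kept and undetermined wells were set to 40, and 1 when p-values were adjusted within each card.

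Of the 415 differences, 351 (84.6%) were smaller than 1 cycle and 262 (63.1%) smaller than 0.5 cycle. The data bound the difference only loosely for a single assay. The 95% confidence interval lay within ±1 cycle for 24 assays and within ±2 cycles for 263 assays (63.4%), and its median width to either side was 1.27 cycles. The spread between replicates was alike at both times, with a median SD of 0.61 cycles at 24 h and 0.60 at 48 h, and it grew with Ct. Assays with a mean Ct from 20 to 25 differed by a median of 0.27 cycles in either direction (n = 141), those from 25 to 30 by 0.33 (n = 171) and those from 30 to 35 by 0.67 (n = 71). Of the 25 differences over 2 cycles, 4 came from assays with a Ct under 12 in 1 sample. The ΔCt of miR-712*, for example, was 4.23, -15.86 and 7.62 at 24 h and 6.997, 7.49 and 11.02 at 48 h.

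The median difference over the 415 assays was -0.15, with 151 assays higher and 264 lower at 48 h. Its sign followed the reference. The median was 0.16 after centring each sample on its own median, 0.011 after centring each card, 0.26 with U6 and small nucleolar RNAs as references and -0.042 for Ct values as they are, and the number of assays higher at 48 h was then 269, 213, 303 and 192. U6 is among these references and itself differed by -1.38, while the small nucleolar RNAs differed by -0.39 to 0.13. The small nucleolar RNAs alone were not run as references. The sample medians of ΔCt were 7.21, 7.80 and 8.25 at 24 h and 7.82, 8.34 and 8.03 at 48 h, which overlap (exact permutation test over 10 splits, two-sided p = 0.40, where 0.1 is the smallest p that 3 against 3 samples can give). On card A the median difference was -0.23 (n = 264), and on card B 0.0082 (n = 151).

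**Figure D1:**
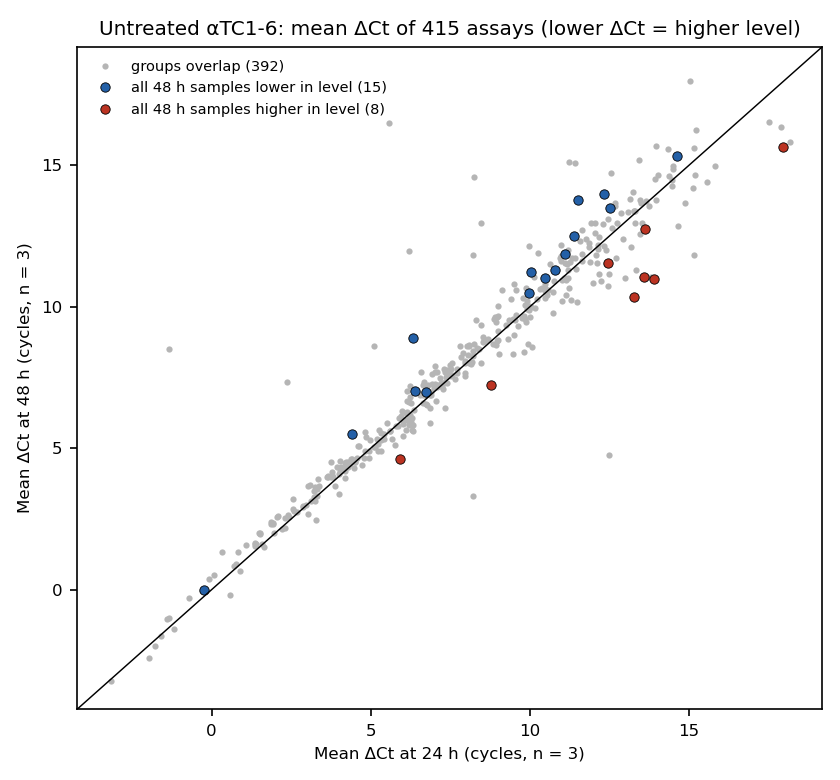
Mean ΔCt of 415 assays in untreated αTC1-6 at 24 h (horizontal axis, cycles, n = 3) and at 48 h (vertical axis, cycles, n = 3), with the line of equal levels. Points above the line are lower in level at 48 h. The 15 blue assays and the 8 red assays are those whose 3 samples of 48 h all lie on the same side of the 3 samples of 24 h, and the remaining 392 overlap.

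For 23 assays (5.54%) the 3 samples of 48 h did not overlap with the 3 of 24 h. All 48 h samples were higher for 8 of them (1.93%) and lower for 15 (3.61%). If the order of the 6 samples were random, an assay would separate in either direction with a probability of 0.1. The share that separated was below that, so separation alone does not mark an assay as changed. These 23 depended on the reference as well. Of them, 13 also separated after median centring, 12 after centring each card, 10 with U6 and small nucleolar RNAs as references and 4 for Ct values as they are. Under all 5 scalings only miR-881* and miR-322* separated, both higher at 48 h.

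MiR-881*, from the group on chromosome X known from testis, showed the lowest p of the 415 assays. Its ΔCt was 13.97, 13.44 and 13.32 at 24 h and 11.16, 11.05 and 10.97 at 48 h. Every 48 h sample was thus more than 2 cycles above every 24 h sample in level. The difference was 2.52 (95% confidence interval 1.68 to 3.36, n = 3 per group), a 5.72-fold higher level, with an adjusted p of 0.127 by limma, and it ranged from 2.32 to 2.65 when each sample was left out in turn. With p-values adjusted within card B alone, the adjusted p by limma was 0.0460. The other arm of the same hairpin, miR-881, measured on card A rather than card B, did not share the difference. Its ΔCt was 12.81, 14.44 and 13.25 at 24 h and 15.01, 11.20 and 14.82 at 48 h, and its difference was -0.17 (95% confidence interval -2.89 to 2.54).

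Of the 23 assays on the cards for this X-linked group, 14 were tested. No member passed at the adjusted threshold, and 1 separated upward and 2 downward, where 1.93% and 3.61% of all 415 assays did. Of the 14 differences 6 were above and 8 below 0, with a median of -0.19 against -0.15 over all 415 assays, and after median centring 8 were above and 6 below 0. MiR-547 stood at a ΔCt of 11.99, 12.56 and 12.48 at 24 h and of 13.98, 14.00 and 14.00 at 48 h. It was lower in all 48 h samples, by 1.65 on the log2 scale (95% confidence interval -2.46 to -0.83), with an adjusted p of 0.444 by limma. The 48 h Ct values of miR-547 (32.95, 30.97 and 31.94) and of miR-26a lay near whole cycles. How far this lowered the 48 h SD of miR-547, 0.011 cycles, was not tested. MiR-741 was at 10.89, 11.14 and 11.28 at 24 h and at 11.778, 11.785 and 12.002 at 48 h, a difference of -0.75 (95% confidence interval -1.53 to 0.03). MiR-881* and miR-741, whose positions on chromosome X are close together, thus lay on opposite sides of 0. MiR-547 lies much farther from both. The widest differences of the group, -4.50 for miR-465a-5p and 7.74 for miR-883a-3p, had confidence intervals that included 0, and that of miR-883a-3p included a 48 h well with a Ct of 4.80.

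The cluster of miR-322 and miR-503 has 10 assays on the cards, 6 of them with a Ct in all 6 samples and 4 without, and no tested member passed at the adjusted threshold. Of the 6, 3 had an unadjusted p under 0.05, as did 13 (3.13%) of all 415 assays, so this count rests on few assays. MiR-322* was at a ΔCt of 18.18, 17.40 and 18.32 at 24 h and of 15.17, 14.84 and 16.92 at 48 h. All 48 h samples were higher in level, by 2.33 (95% confidence interval 0.76 to 3.89) or 5.01-fold, at a mean Ct of 34.8, with an adjusted p of 0.893 by limma. MiR-503 was at 15.07, 11.43 and 13.30 at 24 h and at 10.88, 10.36 and 9.77 at 48 h, again with no overlap, a difference of 2.93 (95% confidence interval 0.65 to 5.21). Its 24 h samples spread over more than 3 cycles (SD 1.82, against 0.55 at 48 h).

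The other members of the cluster did not all share that direction. MiR-503* and miR-450b-5p differed by 1.54 and 2.03, with intervals that included 0. MiR-322, the guide arm of the hairpin that gives miR-322*, was at 11.97, 12.65 and 12.90 at 24 h and at 13.04, 13.35 and 14.06 at 48 h. It was lower at 48 h in all 3 samples, by 0.98 on the log2 scale (95% confidence interval -2.07 to 0.12), so the arms of this hairpin lay on opposite sides of 0. The arms were measured on different cards, miR-322 on card A and miR-322* on card B. MiR-542-3p was at 11.47, 10.96 and 11.25 at 24 h and at 17.03, 17.02 and 11.31 at 48 h. Replicates 1 and 2 of 48 h were lower in level than every 24 h sample by more than 5 cycles, and replicate 3 lay inside the 24 h range. Its difference was -3.90 (95% confidence interval -7.72 to -0.07, adjusted p 0.991 by limma), and without replicate 3 of 48 h it became -5.81 with an adjusted p of 0.00975 by limma. Across the 19 settings run for miR-542-3p the difference ranged from -5.81 to 5.48, so its sign was not stable. The cluster's median of 1.79 therefore stands for 4 higher and 2 lower members, a split that was the same under all 5 scalings.

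The seed of miR-322, AGCAGCA, is shared by miR-15a, miR-15b, miR-16, miR-195, miR-497 and miR-322 among the tested assays whose RefSeq entry was matched. Of these 6, 5 were below 0 and 1 above, from -0.98 to 0.048, with a median of -0.18, and miR-322 was the lowest of them. Over all 415 assays 264 were below 0 and the median was -0.15, so the miRNAs with this seed lay near the whole profile. For the 8 assays of the miR-15 family, to which 5 of the 6 belong, the split of 2 above and 6 below 0 turned to 6 above and 2 below after median centring.

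**Figure D2:**
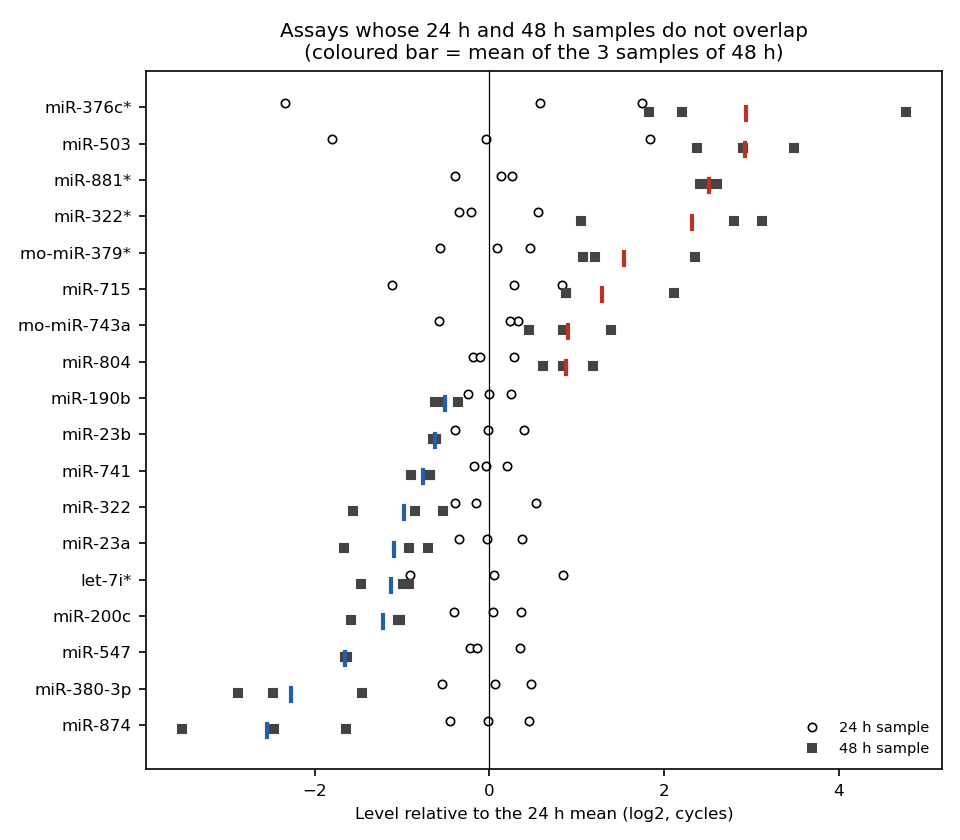
ΔCt of the 18 named assays whose groups do not overlap, drawn as the level relative to the 24 h mean (horizontal axis, log2 in cycles). Open circles are the 3 samples of 24 h, filled squares the 3 samples of 48 h and coloured bars the mean of 48 h, red above and blue below the 24 h mean. MiR-881* shows tight groups far apart, while miR-503 and miR-376c* have wide 24 h groups.

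Of the assays that separated downward, miR-874 had the widest difference. MiR-874 was at a ΔCt of 6.79, 5.89 and 6.35 at 24 h and of 8.81, 7.98 and 9.86 at 48 h, a 5.81-fold lower level (log2 difference -2.54, 95% confidence interval -3.93 to -1.15, adjusted p 0.444 by limma). It had too few Ct values in the normalized table to be fitted from it, and lacked a Ct in some treated sample. MiR-380-3p, of the Dlk1-Dio3 cluster, was at 12.06, 11.03 and 11.45 at 24 h and at 12.97, 13.99 and 14.39 at 48 h. That is a 4.81-fold lower level (log2 difference -2.27, 95% confidence interval -3.52 to -1.02, adjusted p 0.444 by limma), while miR-380-5p from the same hairpin differed by 0.14. From the normalized table the difference of miR-380-3p was only -0.17, with an adjusted p of 0.998 by limma.

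The Dlk1-Dio3 cluster was not lower as a whole. Of its 65 assays on the cards, 54 were tested, 0 passed at the adjusted threshold, and 1 separated upward and 1 downward, where 1.93% and 3.61% of all 415 assays did. With miR-26a as reference 33 differences were above and 21 below 0, with a median of 0.083. After median centring 47 were above and 7 below 0, with a median of 0.40, and against U6 and small nucleolar RNAs the split was again 47 to 7, with a median of 0.51. MiR-668 was at 13.96, 15.21 and 16.32 at 24 h and at 12.18, 13.98 and 9.31 at 48 h, a difference of 3.34 (95% confidence interval 0.27 to 6.41), to which replicate 3 of 48 h contributed most. MiR-376c* differed by 2.94 between groups that did not overlap, and its 24 h SD was 2.10. MiR-376c, the other arm, measured on card A rather than card B, differed by 0.079. The outermost value of the cluster, -6.33 for miR-493, included a single 24 h sample at a ΔCt of -2.82 beside 13.20 and 14.38.

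The miR-200 family, which represses the inducers of epithelial to mesenchymal transition, was lower in 4 of its 5 tested assays, with a median of -1.22. Only miR-200c separated. Its ΔCt was 9.98, 10.43 and 9.67 at 24 h and 11.07, 11.05 and 11.61 at 48 h, a 2.32-fold lower level (log2 difference -1.22, 95% confidence interval -2.14 to -0.29, adjusted p 0.991 by limma). MiR-429, with the same seed, was at 8.99, 9.48 and 12.31 at 24 h and at 8.87, 10.39 and 16.41 at 48 h, which overlap. MiR-200a was at 5.05, 10.66 and 8.96 at 24 h and at 11.57, 10.28 and 13.60 at 48 h, a difference of -3.59 (95% confidence interval -7.44 to 0.25). MiR-141, whose seed equals that of miR-200a, differed by -0.63 (95% confidence interval -3.90 to 2.63). Another 4 assays of the family lacked a Ct in at least 1 sample and were not tested.

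All 9 assays of the miR-23/24/27 clusters, at both genomic sites, had a difference below 0, from -1.09 to -0.14, with a median of -0.33, and 0 passed at the adjusted threshold. MiR-23a was at 4.03, 4.42 and 4.75 at 24 h and at 5.10, 5.32 and 6.06 at 48 h, a 2.13-fold lower level (log2 difference -1.09, 95% confidence interval -2.11 to -0.07). MiR-23b was at 5.997, 6.405 and 6.787 at 24 h and at 7.001, 7.002 and 7.036 at 48 h, also without overlap. Its 48 h Ct values (25.98, 23.98 and 24.98) lay near whole cycles. Their direction depended on the reference, since 4 of the 9 were higher at 48 h after median centring and 6 of 9 against U6 and small nucleolar RNAs.

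**Figure D3:**
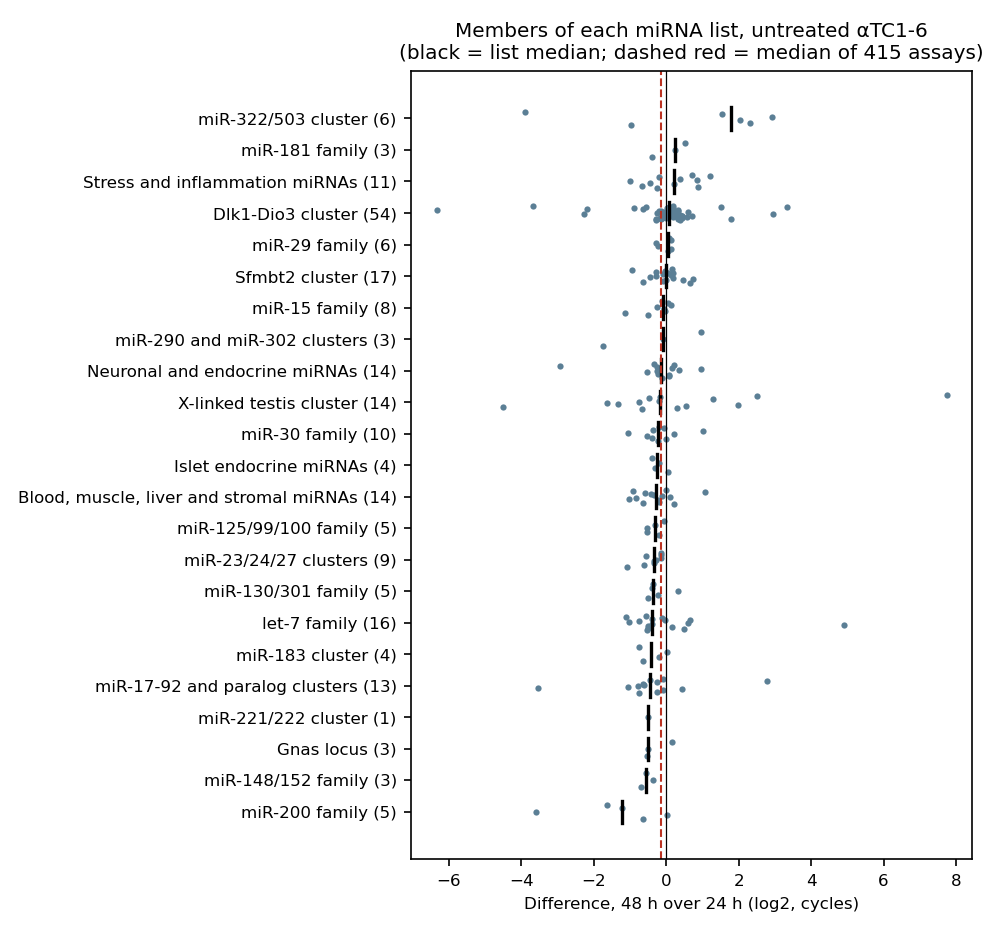
Differences of the tested members of 23 miRNA lists (horizontal axis, log2 of 48 h over 24 h in cycles; vertical axis, list with its number of tested assays). Each point is an assay, the black bar is the list's median and the dashed red line the median of the 415 assays at -0.15. The other medians lie between -0.56 and 0.24, with the miR-322 and miR-503 cluster at 1.79 and the miR-200 family at -1.22 outside.

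In the islet endocrine list, which checks only for an islet endocrine character, all 4 assays had a Ct in all 6 samples. No βTC1 sample was set beside these values. The Ct of miR-375, which controls hormone secretion and islet cell mass, averaged 14.8, and its ΔCt was -4.04, -2.65 and -2.83 at 24 h and -4.03, -2.63 and -2.99 at 48 h. The difference was 0.044 (95% confidence interval -1.35 to 1.44), and replicate 1 was the highest in level at both times. MiR-7a, miR-7b and miR-7a* differed by -0.32, -0.38 and -0.19, each with a confidence interval that included 0. The summed level of the 4, with miR-26a as 1, was between 6.66 and 17.2 at 24 h and between 6.53 and 16.8 at 48 h.

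Of the 24 assays for miRNAs of blood, muscle, liver and stromal cells, 14 had a Ct in all 6 samples and between 18 and 23 had one in each sample. None of the 14 separated, 3 differences were above and 11 below 0, and the median was -0.28. This direction turned with the reference, with 7 above and 7 below 0 (median 0.029) after median centring and 9 above and 5 below (median 0.13) against U6 and small nucleolar RNAs. Their summed level was between 0.0099 and 0.0202 of that of miR-26a at 24 h and between 0.0073 and 0.0211 at 48 h. MiR-1 and miR-133b, defining miRNAs of muscle, had a Ct in 3 and 4 of the 6 samples, and for each 1 well was under a Ct of 12. Other muscle miRNAs of the list, miR-133a, miR-206, miR-208 and miR-208b, had a Ct in all 6 samples. Their differences were -0.24, -0.57, 1.06 and -0.91, each with a confidence interval that included 0. MiR-223, a defining miRNA of myeloid cells, had a Ct in all 6 samples and differed by -0.018.

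The miRNAs named in the study's text differed by less than 1 cycle between the untreated time points. MiR-296-3p, from the imprinted Gnas locus, was at 9.00, 8.37 and 9.41 at 24 h and at 9.75, 9.00 and 9.62 at 48 h, a difference of -0.53 (95% confidence interval -1.58 to 0.52), which became -0.25 without replicate 2 of 24 h and -0.078 against U6 and small nucleolar RNAs. MiR-298, from the same locus, was at 6.88, 6.52 and 6.85 at 24 h and at 6.53, 6.29 and 6.90 at 48 h, a difference of 0.17 (95% confidence interval -0.67 to 1.01). Both pairs of groups overlapped. MiR-146a, a target of NF-κB, differed by -0.24 (95% confidence interval -1.31 to 0.82), miR-203 by 0.23 (-1.01 to 1.46), miR-21 by -0.45 (-1.84 to 0.94), miR-30d by -0.36 (-1.50 to 0.77) and miR-126-3p by -0.64 (-1.87 to 0.58). None of these intervals reaches 2 cycles, so larger changes with time in culture lie outside them.

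The stress and inflammation list, with miR-34, miR-21, miR-146, miR-155, miR-203 and miR-210, was spread to both sides. Of its 12 assays 11 were tested, 6 were above and 5 below 0, none separated, and the median was 0.23. Against U6 and small nucleolar RNAs 9 were above and 2 below 0. MiR-34c, a target of p53, was at 15.93, 13.40 and 15.30 at 24 h and at 12.95, 14.03 and 14.02 at 48 h, a difference of 1.21 with an interval of -0.59 to 3.02. MiR-210, which rises in low oxygen in many cells, was at 1.62, 4.41 and 3.85 at 24 h and at 1.00, 3.30 and 3.06 at 48 h, a difference of 0.84 (95% confidence interval -1.48 to 3.17).

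Among the growth-linked and differentiation-linked families the medians were small. The clusters of miR-17 to miR-92a and their paralogs, which promote proliferation, had 13 tested of 21 assays, 11 of them below 0, and a median of -0.46. Against U6 and small nucleolar RNAs their median was -0.0037, with 6 above and 7 below 0. The let-7 family, which is linked to differentiation, had 16 tested assays and a median of -0.39, the miR-30 family 10 and -0.22, and the miR-29 family 6 and 0.055. In the let-7 family only let-7i* separated, at 10.53, 11.32 and 12.28 at 24 h against 12.29, 12.85 and 12.36 at 48 h, where the nearest samples were less than 0.1 cycle apart. The rodent-specific Sfmbt2 cluster had 17 tested assays of 18, with 9 above and 8 below 0 and a median of 0.0031. Of the neuronal and endocrine list 14 of 15 assays were tested, and the median was -0.16. Its miR-137 separated downward at -0.27, with the nearest samples at a ΔCt of 6.902 at 24 h and 6.976 at 48 h. MiR-218-1* was at -2.94 (95% confidence interval -5.53 to -0.35) with groups that overlapped. No member of these 6 lists passed at the adjusted threshold. Apart from the clusters of miR-17 to miR-92a and the let-7 family, whose medians stayed below 0 after median centring (-0.14 and -0.079), their medians were above 0 after it, from 0.097 for the miR-30 family to 0.37 for the miR-29 family.

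The smaller lists had medians within 1 cycle of 0, and no member passed at the adjusted threshold. The miR-183 cluster (4 tested), typical of sensory and neuroendocrine cells, had a median of -0.43, the miR-130 and miR-301 family (5 tested) -0.38, the miR-148 and miR-152 family (3 tested) -0.56 and the miR-181 family (3 tested) 0.24. The miR-15 family, which opposes cell cycle entry, had 8 tested assays and a median of -0.079. The miR-125, miR-99 and miR-100 family had 5 tested of 9 assays and a median of -0.30, and of these miR-125b-5p separated downward at -0.53. Its nearest samples were at a ΔCt of 10.971 at 24 h and 10.985 at 48 h. Of the 3 assays of the Gnas locus the median was -0.50. MiR-222 was at -0.49 and miR-221 was not tested. Of 21 assays for the pluripotency clusters of miR-290 and miR-302 only 3 were tested, with a median of -0.098. Several of these medians turned with the reference. Against U6 and small nucleolar RNAs the miR-183 cluster was at 0.026 and the miR-130 and miR-301 family at 0.079. The miR-125, miR-99 and miR-100 family was at 0.15, the miR-15 family at 0.32 and the pluripotency clusters at 0.36. The miR-148 and miR-152 family (-0.11), the Gnas locus (-0.047) and miR-222 (-0.040) stayed below 0.

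Both arms of 88 mouse hairpins were tested, 62 of them with the arms on different cards. The arms differed from each other by a median of 0.36 cycles and had the same sign in 55 of 88. Their correlation across hairpins was low (Pearson r = 0.070, Spearman rho = 0.10), as a description over points that share the same 6 samples. In 7 hairpins the arms were more than 2 cycles apart, among them miR-322, miR-881, miR-376c and miR-380 above. MiR-92a* at 2.77 against miR-92a at -0.24 is another, with a 95% confidence interval of -0.95 to 6.49 for miR-92a*. For miR-322, miR-881, miR-376c, miR-708 and miR-92a the star arm, the higher in each, was on card B and the other arm on card A. Arm and card cannot be told apart for these. For miR-380 and miR-465a both arms were on card A.

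Of the 168 assays without a Ct in all 6 samples, 14 had none in any sample and 154 had one in some. More samples had a Ct at 24 h for 62 of them and at 48 h for 55, and the number was equal for 37. Only 3 assays had a Ct in all 3 samples of one time and in none of the other. MiR-20a*, the star arm of a hairpin clustered with miR-17, had a Ct of 24.3, 19.0 and 19.5 at 24 h and none at 48 h. Rno-miR-363* had a Ct of 7.68, 26.2 and 22.5 at 24 h and none at 48 h, and rno-miR-377 had 33.9, 31.6 and 11.8 at 48 h and none at 24 h. MiR-302a, of the pluripotency list, had a Ct of 35.98, 33.98 and 34.96 at 24 h, and of 38.00 and 39.25 in replicates 2 and 3 of 48 h with none in replicate 1. With undetermined wells at a Ct of 40, miR-20a* differed by -19.2 and miR-302a by -4.22, with adjusted p of 0.00903 and 0.0175 by limma, and these are the only assays that passed under that setting. At 48 h miR-302a was thus close to the limit of 40 cycles.

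The cytokine-treated αTC1-6 cells give the same time comparison in samples that the untreated fit did not use. They are not an independent check, since treated and untreated samples of the same number deviated together from their group means, with a correlation of 0.41 to 0.54 at 24 h and of 0.32 to 0.41 at 48 h. Over the 386 assays with a Ct in all 12 αTC1-6 samples, the median difference was -0.57 in treated and -0.15 in untreated cells. In the treated cells it was -0.41 on card A (n = 251) and -0.99 on card B (n = 135). In the treated cells 0 of 386 assays passed at an adjusted p under 0.05 by limma, 36 (9.33%) had an unadjusted p under 0.05, 35 of them lower at 48 h, and 65 (16.8%) separated. That count and its direction rested on the reference. It was 24 after median centring, 16 after centring each card, 8 against U6 and small nucleolar RNAs and 18 for Ct values as they are, with 7, 10, 5 and 13 of them lower at 48 h, and the treated median was then 0.16, -0.083, 0.10 and -0.18. The differences of untreated and treated cells correlated across assays with a Pearson r of 0.46 and a Spearman rho of 0.16, and with 0.24 and 0.15 over the 384 assays with no Ct under 12, as a description over points that share the reference and same-numbered samples.

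MiR-668, miR-542-3p and miR-200c were the 3 assays with an unadjusted p under 0.05 in the same direction in both. MiR-542-3p was at a ΔCt of 10.03, 9.79 and 10.18 in treated cells at 24 h and at 15.93, 16.41 and 10.73 at 48 h, a difference of -4.36 (95% confidence interval -7.49 to -1.23). As in the untreated cells, replicates 1 and 2 of 48 h were more than 5 cycles lower in level and replicate 3 was not. Without that replicate the difference in treated cells was -6.17, with an adjusted p of 0.00302 by limma. MiR-668 was at 14.33, 18.02 and 15.96 in treated cells at 24 h and at 14.22, 13.53 and 9.67 at 48 h, a difference of 3.63 (95% confidence interval 0.57 to 6.69), and replicate 3 of 48 h was again the highest in level. For both assays the replicates of 48 h with the same number thus stood alike in treated and untreated cells.

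MiR-200c was at 9.92, 8.99 and 11.06 in treated cells at 24 h and at 11.47, 11.71 and 12.58 at 48 h, a difference of -1.93 (95% confidence interval -3.38 to -0.47). It separated downward in both, with miR-23b, miR-137 and miR-190b. Of all 386 assays, 20 separated in untreated and 65 (16.8%) in treated cells, where the median was -0.57. Whether the 4 shared assays exceed what these shares would give was not tested. MiR-715 separated in both but in opposite directions, with 1.29 in untreated and -1.81 in treated cells.

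MiR-881* did not separate in treated cells. Its ΔCt there was 11.16, 10.90 and 13.22 at 24 h and 14.44, 12.24 and 12.63 at 48 h, a difference of -1.34 (95% confidence interval -3.23 to 0.54) against 2.52 in untreated cells. The test of the difference between both time effects gave 3.86 for miR-881*, with an adjusted p of 0.723 by limma. That interaction passed the adjusted threshold for 0 of 386 assays, 16 (4.15%) had an unadjusted p under 0.05, and the lowest adjusted p was 0.723. With treated and untreated samples of the same time and number as pairs, a setting added after the data were seen, 0 passed, 66 had an unadjusted p under 0.05, and the adjusted p by limma of miR-881* was 0.225. MiR-298 differed by 0.17 in untreated and by -1.71 in treated cells (interaction 1.88, adjusted p 0.990 by limma).

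**Figure D4:**
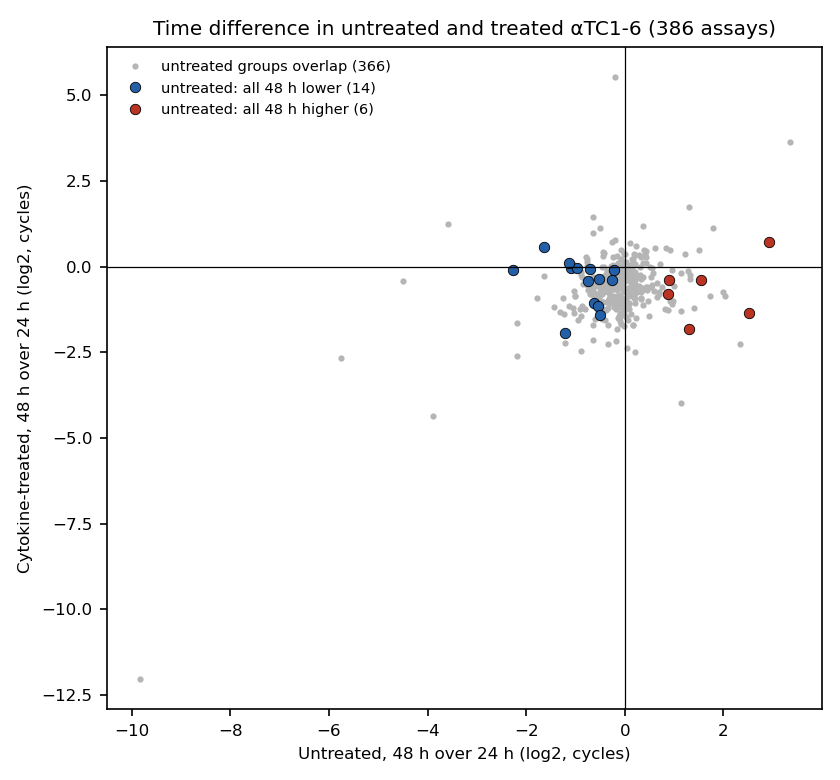
Difference of 48 h over 24 h for 386 assays in untreated αTC1-6 (horizontal axis, log2 in cycles) and in cytokine-treated αTC1-6 (vertical axis, log2 in cycles). Coloured points are assays whose untreated groups do not overlap, 14 lower (blue) and 6 higher (red) at 48 h. Of the red points 1 lies above 0 on the vertical axis, and the cloud is centred below 0 on it, at -0.57. The point at the lower left is miR-712*.

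Calls between the time points appeared when the normalized table was used with its undetermined wells filled in. With the ΔCt of the normalized table and undetermined wells at a Ct of 40, a setting added after the data were seen, 24 of 489 assays passed at an adjusted p under 0.05 by limma, and all 24 were higher at 48 h. Of these, 23 were on card A and had no Ct in any 24 h sample of the normalized table. All 23 had a Ct in at least 1 sample of 24 h in the non-normalized table, and 13 in all 3. MiR-687 was at a ΔCt of 6.30, 6.50 and 6.17 at 24 h and of 6.09, 6.34 and 4.43 at 48 h in the non-normalized table, a difference of 0.70, against 16.3 from the normalized table. MiR-200a differed by -3.59 in the former and by 10.1 in the latter. For 14 of the 24 a difference could be fitted from the non-normalized table, with 5 below 0 and a median of 0.82. When only assays with a Ct in all 6 samples of the normalized table were kept, 0 assays passed by limma, with 9 at an unadjusted p under 0.05.

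**Figure D5:**
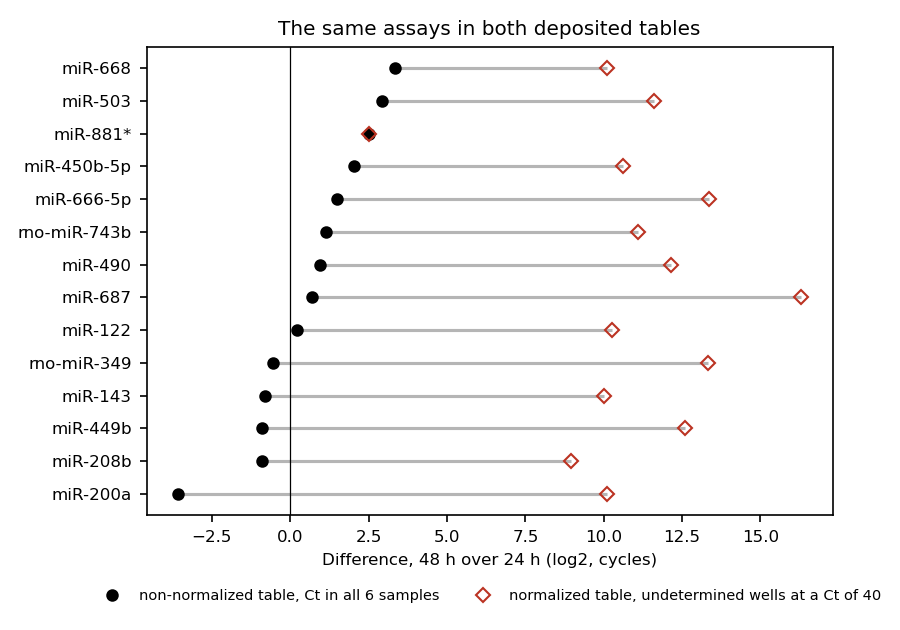
Difference of 48 h over 24 h (horizontal axis, log2 in cycles) of the 14 assays that passed with the normalized table and could also be fitted from the non-normalized table. Black circles are the non-normalized table and open red diamonds the normalized table with undetermined wells at a Ct of 40. The circles lie between -3.59 and 3.34, and all diamonds except that of miR-881*, at 2.52, lie at 8.95 or above.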

How the data were processed

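Levels of 584 rodent miRNA assays in 15 samples were measured on TaqMan low density array cards A and B after reverse transcription and preamplification. The authors deposited Ct values, and ΔCt values on a log2 scale relative to miR-26a in a normalized table, with relative quantities that were not used. Deposited fold changes of treated or βTC1 samples over untreated αTC1-6 are the authors' own comparisons and were not used. The software that set the Ct thresholds is not given in the sources used here. Assays in several wells were averaged.

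Here, the Ct of miR-26a was subtracted from the non-normalized Ct of each assay with a Ct in all 6 samples, and 48 h was compared with 24 h with limma 3.58.1 in R 4.3.3 (6 samples, eBayes, two-sided, Benjamini-Hochberg over all assays, threshold 0.05). The treated cells and the interaction were fitted alike over 386 assays with a Ct in all 12 samples. Summaries used Python 3.11.15, numpy 2.4.6, pandas 2.3.3, scipy 1.17.1 and matplotlib 3.10.9. The fit was tested on simulated data. Named assays were up to 10 per direction with the lowest p among those whose groups did not overlap (10 lower and 8 higher), up to 4 per list and the miRNAs named in the paper. Members and lists were chosen with earlier results of these data known. The main interaction fit used no pairs and no block. In a setting added after the data were seen, treated and untreated samples of the same time and replicate number were paired. Deviations of every such pair correlated by more than 0.1, as the values beside the treated results show. Depth has no meaning for these arrays, and the number of samples limits the precision. Alternatives covered the reference, the filter, the table, the adjustment, the samples in the fit, the replicate block and leaving out each sample.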

Additional observations from a re-analysis of the deposited data

Results flagged for a closer look

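The plant miRNA assay ath-miR159a, a negative control on both cards that no mouse RNA should match, gave a Ct in 4 of the 6 untreated αTC1-6 samples, a signal outside the miRNA measurements. Its Ct was 25.3 in 1 sample of 24 h and 33.0, 28.2 and 26.4 in the 3 samples of 48 h, within the range of Ct of many tested assays. These values were the same on both cards, as were those of U6, snoRNA135, snoRNA202, U87 and Y1. They therefore cannot be read as separate measurements for each card.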

How the results depend on the processing

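The count of 0 assays at an adjusted p under 0.05 by limma held for the untreated comparison except for 2 assays with a Ct in at least 3 samples, 1 with adjustment within each card, 24 with the normalized table and undetermined wells at 40 (chosen after seeing the data), and 0 to 1 when each sample was left out, the 1 being miR-542-3p without replicate 3 of 48 h. In treated cells leaving out a sample gave 0 to 1, namely miR-712* without replicate 2 of 24 h and miR-542-3p without replicate 3 of 48 h, and the interaction stayed at 0 under every setting run. The median difference of -0.15 changed sign with median centring (0.16), centring of each card (0.011) and U6 and small nucleolar RNAs (0.26), and ranged from -0.32 to 0.042 when each sample was left out, the latter without replicate 1 of 24 h. The cause was not tested. Alternatives were counted for 26 assays, those named because their groups separated and those named in the paper. Of their 536 values, 520 kept sign and side of the threshold, though not always size. Another 3 passed it (miR-881* in 2 settings and miR-503 in 1) and 13 changed sign. Assays named only from the lists were left out of this count, and some of them, such as miR-200a and miR-542-3p, changed sign between settings. MiR-23a was 4.76 with the normalized table and undetermined wells at 40. MiR-146a was 0.070 with median centring, 0.080 with centring of each card and 0.21 against U6 and small nucleolar RNAs, where miR-21 was 0.0042, miR-30d 0.092, miR-298 0.63 and miR-126-3p -0.19. When each sample was left out, miR-146a ranged from -0.50 to 0.14, miR-203 from -0.064 to 0.63, miR-375 from -0.36 to 0.48 and miR-21 from -0.73 to 0.036.

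Between the untreated time points, deviations of samples with the same replicate number correlated with 0.15, 0.054 and 0.17 over 415 assays, where replicate 2 of 48 h correlated better with replicate 1 of 24 h, at 0.11, and with 0.16 to 0.20 over the 386 assays with a Ct in all 12 samples, so whether these numbers pair samples was not settled. Between the treated time points they correlated with 0.049 to 0.23. With the replicate number as a block, 0 assays passed at an adjusted p under 0.05 by limma in all 3 comparisons, and unadjusted p under 0.05 went from 13 to 28 in the untreated comparison, from 36 to 49 in treated cells and from 16 to 38 for the interaction, or to 66 with the block within each time point (chosen after seeing the data). The 16 of the interaction were 8 both against U6 and small nucleolar RNAs and for Ct values as they are. The 36 assays of treated cells became 17, 19 and 60 without replicates 1, 2 and 3 of 24 h and 21 and 22 without replicates 2 and 3 of 48 h, and the 16 of the interaction became 27 and 9 without untreated replicates 2 and 3 of 48 h and 10 and 28 without treated replicates 2 and 3 of 24 h. Precision is limited by 3 samples per group, by Ct values near whole cycles and, at a Ct above 30, by wider spread.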

Other observations

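Among the mouse small RNAs that serve as controls on the cards, U6 had the widest difference between the time points. Its ΔCt was -7.83, -6.36 and -6.67 at 24 h and -5.24, -5.31 and -6.17 at 48 h, lower in level in all 48 h samples, with a mean difference of -1.38. The mean differences of snoRNA202 and snoRNA135 were -0.016 and -0.026, that of U87 was -0.39, that of snoRNA429 0.13 and that of Y1 -0.31. These values are given without a test, since the control assays were not part of the fit.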
